A study of Mus musculus with 15 samples.

Results

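The Nat8 family of mouse liver was followed through 5 genes of the deposited table, Nat8, Nat8f1, Nat8f2, Nat8f5 and Nat8f6, which are 5 of the 16809 genes listed there. They were taken by symbol after their read counts across the groups of this series were known, so every count of them between groups below is a description. The data are 15 RNA-seq libraries of liver, 3 a group. All mice were wild type per the labels and were fed for 6 weeks. The control group ate standard feed, and the model group ate such feed at 78.8% with lard (10%), egg yolk powder (10%), cholesterol (1%) and sodium cholate (0.2%). The remaining groups were given quercetin (200 mg/kg/day), myricetin (75 mg/kg/day) or kaempferol (100 mg/kg/day) by gavage on a diet labelled high-fat, whose make-up the labels do not state. These flavonols share a skeleton and differ in the number of hydroxyl groups on the B ring, which is highest in myricetin and lowest in kaempferol. Strain, sex, hour of collection and whether each library is a separate mouse are not stated, so spreads and tests below refer to libraries, which may be technical replicates.

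Nat8 enzymes are acetyltransferases of the endoplasmic reticulum membrane. Human NAT8 moves the acetyl group of acetyl-CoA onto cysteine S-conjugates, the last step by which glutathione conjugates of reactive compounds become mercapturates, which kidney and liver release for excretion. Human NAT8 and its close paralogue are also described as lysine acetyltransferases of proteins in the reticulum lumen, fed by the acetyl-CoA carrier SLC33A1. Mice carry several tandem copies of the gene, and the separate role of each copy is less well described than that of the human enzyme.

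The table placed all 5 members on the minus strand of chromosome 6 (GRCm38.p6), within 107.871 kb. In order they were Nat8f6 at chr6:85808044-85809877, Nat8f5 at chr6:85817218-85820972, Nat8 at chr6:85830387-85836857, Nat8f2 at chr6:85865422-85869137 and Nat8f1 at chr6:85910154-85915914. The last overlaps Tprkb on the opposite strand. The rows Nat8f3, Nat8f4 and Nat8f7 lie in the same cluster, and all 8 family rows span 209.208 kb. In the GENCODE vM21 annotation the coding part of each member lies in 1 exon, and the coding length is 681 bases in Nat8 and Nat8f5, 678 in Nat8f6, 696 in Nat8f1 and 714 in Nat8f2. Coding identity was 84.23% between Nat8 and Nat8f1, 80.09% between Nat8 and Nat8f5 and 70.04% between Nat8f5 and Nat8f6. Nat8f6 stood apart from the other members in this respect, because its coding sequence was 99.71% identical to Nat8f3 and 99.56% identical to Nat8f7. Of the 100-base stretches in Nat8f6 transcripts, 50.1% also occurred in another family gene, against 1.07% in Nat8, 0.779% in Nat8f1, 4.17% in Nat8f5 and 6.78% in Nat8f2. Reads of Nat8f6 therefore had to be divided with Nat8f3 and Nat8f7 by the authors' counting, and its expected count was not whole in 12 of 15 libraries. The counts of Nat8, Nat8f1 and Nat8f5 were whole in all 15 libraries, and that of Nat8f2 in 0 of 15. One annotated Nat8f6 transcript begins beside the Nat8f5 start, at position 85820954, and runs to 85808024 across the Nat8f5 gene.

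The members whose counts differed most between groups (Nat8f5, Nat8f6 and Nat8) and an abundant member that differed less (Nat8f2) are represented here by the 250 bases before a transcription start, from the RefSeq promoter table for GRCm38.p6, all on the minus strand and written 5′ to 3′. For Nat8 the table gives 2 starts, and the one near the GENCODE transcript is shown. Capitals mark matches to the motifs named after the sequences.
Nat8f5 at chr6:85820973-85821222: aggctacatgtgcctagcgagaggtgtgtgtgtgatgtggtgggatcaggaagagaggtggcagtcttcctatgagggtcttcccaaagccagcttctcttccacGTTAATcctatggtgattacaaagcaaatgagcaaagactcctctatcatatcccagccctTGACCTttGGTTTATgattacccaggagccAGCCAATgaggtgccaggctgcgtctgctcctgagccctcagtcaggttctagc
Nat8f6 at chr6:85809878-85810127: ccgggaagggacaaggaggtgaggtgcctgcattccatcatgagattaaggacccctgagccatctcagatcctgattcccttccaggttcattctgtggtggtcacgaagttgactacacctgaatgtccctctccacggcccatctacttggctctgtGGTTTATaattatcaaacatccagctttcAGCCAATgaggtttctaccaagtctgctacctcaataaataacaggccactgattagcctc
Nat8 at chr6:85832280-85832529: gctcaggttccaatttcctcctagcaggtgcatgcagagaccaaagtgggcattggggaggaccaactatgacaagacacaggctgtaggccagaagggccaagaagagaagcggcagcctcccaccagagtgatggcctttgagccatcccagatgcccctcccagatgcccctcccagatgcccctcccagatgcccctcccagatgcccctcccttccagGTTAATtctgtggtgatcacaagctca
Nat8f2 at chr6:85869138-85869387: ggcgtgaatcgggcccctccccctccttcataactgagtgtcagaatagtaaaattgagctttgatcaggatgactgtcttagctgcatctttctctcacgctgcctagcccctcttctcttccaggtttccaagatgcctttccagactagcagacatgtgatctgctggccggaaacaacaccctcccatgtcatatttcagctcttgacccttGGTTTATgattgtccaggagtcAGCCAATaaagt
The sequences were searched on both strands for a STAT5 motif (TTCNNNGAA), a partial HNF1 site (GTTAAT), an E-box (CACGTG), a D-box (TTATGTAA), a nuclear receptor core motif (AGGTCA), an HNF4 motif (CAAAGTCCA) and a C/EBP motif (TTGCGCAA). The partial HNF1 site was found in Nat8f5, 145 bases before the start, and in Nat8, 27 bases before the start. It occurs in 7.1% of all 32851 windows of 300 bases in the table. The nuclear receptor core motif was found on the other strand of Nat8f5, 84 bases before the start, and occurs in 16.3% of windows. In Nat8 an HNF4 match began 2 bases past the start and is not printed, and it occurs in 0.475% of windows. The letters GGTTTAT (2.41% of windows) and AGCCAAT (7.86%), which do not overlap, were picked by eye from the alignment of these promoters. Both stood in Nat8f5, Nat8f6, Nat8f2 and the unprinted Nat8f7, and in neither Nat8 nor Nat8f1. The pair of blocks thus stood both in Nat8f5 and Nat8f6 and in Nat8f2, and was not in the Nat8 window. The promoter windows of Nat8f5 and Nat8f6 were 68.18% identical, those of Nat8f5 and Nat8f2 68.29%, and those of Nat8f6 and Nat8f7 97.52%. Identity was counted over aligned bases only, 220, 205 and 242 in that order. By the same measure the Nat8f1 window was 56.36% identical to that of Nat8f5 and 60.83% to that of Nat8f2. A match is a run of letters, and no binding was measured here.

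Library totals ran from 15.9 M to 17.6 M expected counts. Levels between genes were compared on the authors' TPM, a measure of transcript abundance scaled for gene length and library size. Nat8f2 and Nat8f1 made up most of the family in each group, while Nat8f5 and Nat8 were lower and Nat8f6 was the lowest. In the control libraries the TPM was 345.6 ± 76.2 for Nat8f2, 354.1 ± 23.8 for Nat8f1, 35.7 ± 12.3 for Nat8f5, 15.6 ± 7.47 for Nat8 and 1.53 ± 0.259 for Nat8f6 (SD, n = 3). In the model libraries the TPM was 471.9 ± 14.6 for Nat8f2, 285.9 ± 25.1 for Nat8f1, 95.4 ± 14.9 for Nat8f5, 30.1 ± 10.3 for Nat8 and 3.36 ± 0.350 for Nat8f6 (SD, n = 3). The share of the members' summed TPM held by Nat8, Nat8f5 and Nat8f6 together was 5.16% to 8.44% in control libraries and 12.5% to 17.4% in model libraries. It was 2.26% to 4.33% with quercetin, 2.70% to 4.58% with myricetin and 4.80% to 8.60% with kaempferol. The model range lay above all other groups, and the quercetin and myricetin ranges lay below the control range. Nat8f5 alone went from 3.63% to 5.57% of the family in control libraries to 9.77% to 12.6% in model libraries.

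**Figure D1:**
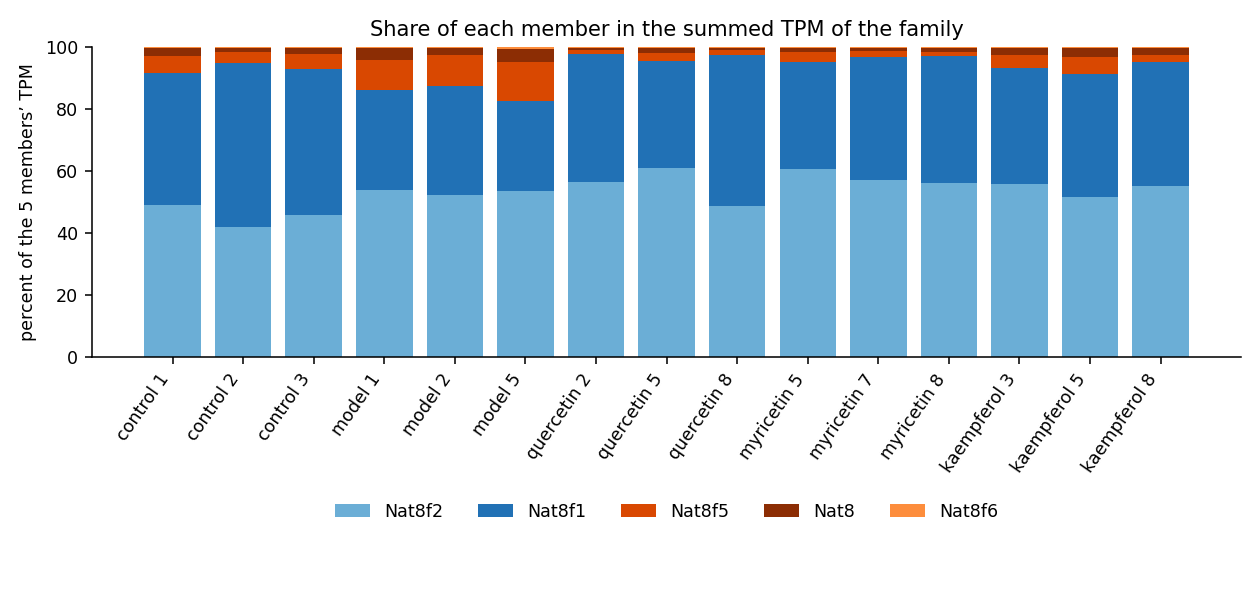
Share of each of the 5 members in their summed TPM (vertical axis, percent) in each of the 15 libraries (horizontal axis). Nat8f5, Nat8 and Nat8f6, stacked at the top, together hold 12.5% to 17.4% in the 3 model libraries and at most 8.60% in any other library.

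From here levels are CPM, counts scaled to the TMM-adjusted library size, and are compared only within a gene. Nat8f5 varied most widely with group. It was 29.9, 15.7 and 19.2 CPM in the control libraries and 53.5, 50.9 and 76.5 CPM in the model libraries. It was 6.78, 12.5 and 8.49 CPM with quercetin, 15.2, 8.68 and 6.67 CPM with myricetin and 18.3, 24.6 and 9.82 CPM with kaempferol. All 3 model libraries were above every other library, and all 9 flavonol libraries were below every model library. Of these 9, 7 were also below every control library, and the 2 others were kaempferol libraries. The order of means was model (60.3 ± 14.1 CPM), control (21.6 ± 7.40 CPM), kaempferol (17.6 ± 7.41 CPM), myricetin (10.2 ± 4.47 CPM) and quercetin (9.25 ± 2.93 CPM, all SD, n = 3). Neighbours in that order overlapped except for the model and the control.

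Nat8f6 followed the same outline at a far lower level. It was 1.39, 1.29 and 1.62 CPM in the control libraries and 3.06, 2.79 and 3.95 CPM in the model libraries. It was 0.445, 0.832 and 0.431 CPM with quercetin, 0.801, 0.905 and 0.402 CPM with myricetin and 0.885, 0.700 and 0.511 CPM with kaempferol. The 9 flavonol libraries lay below every control library, and the control libraries lay below every model library. These levels rest on 48.3 to 59.6 expected counts in a model library and 7 to 16.4 in a flavonol library. When Nat8f3, Nat8f6 and Nat8f7, which share most of their sequence, were summed, the level was 2.51 to 2.80 CPM in control, 4.25 to 7.31 in model and 0.402 to 1.50 in flavonol libraries, so the same separation held for the sum. Nat8f7 alone, with 15.4 to 28.5 expected counts in each control and model library, had 7.28 or fewer in every flavonol library and 0, 1 and 0 in the myricetin libraries.

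Nat8, the copy that carries the name of the human enzyme, was more scattered within groups. It was 16.4, 6.51 and 9.01 CPM in the control libraries and 22.0, 12.6 and 30.0 CPM in the model libraries. It was 3.17, 9.66 and 5.11 CPM with quercetin, 7.84, 4.58 and 7.93 CPM with myricetin and 11.5, 15.5 and 10.1 CPM with kaempferol. The quercetin and myricetin libraries lay below every model library, whereas the kaempferol and control ranges overlapped the model. The lowest model library, with 12.6 CPM, was also the lowest for Nat8f5 and Nat8f6.

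Nat8f1 and Nat8f2, the abundant copies, differed less between groups. Nat8f1 was 223.4, 224.0 and 185.5 CPM in the control libraries, 174.7, 178.6 and 172.2 in the model, 176.6, 168.3 and 243.2 with quercetin, 168.7, 163.5 and 207.9 with myricetin and 162.3, 175.5 and 156.7 with kaempferol. Nat8f2 was 1092, 761.2 and 759.6 CPM in the control libraries, 1223, 1112 and 1345 in the model, 1029, 1257 and 1014 with quercetin, 1238, 977.9 and 1206 with myricetin and 1019, 964.7 and 920.7 with kaempferol. Nat8f1 was lower in every model library than in any control library and Nat8f2 was higher, but in the order of means neighbouring groups overlapped for both. Nat8f4, a neighbouring family row outside the 5 members, was 6.31 to 9.38 CPM in control, 8.02 to 9.02 in model and 5.09 to 13.0 in flavonol libraries. In the order of means its neighbouring groups overlapped too. Its highest kaempferol library, at 8.0218 CPM, was nevertheless just below its lowest model library, at 8.0224 CPM. The sum of the 5 members was 975.0 to 1363 CPM in control, 1356 to 1628 in model, 1216 to 1448 with quercetin, 1156 to 1431 with myricetin and 1098 to 1212 with kaempferol. In CPM the sum, of which Nat8f2 holds the greater part, therefore overlapped between model and each group except kaempferol. In TPM the sum was 872.4 to 896.4 in model, 683.5 to 880.2 in control and 778.8 to 976.7 with quercetin. It was 725.8 to 862.1 with myricetin and 668.3 to 781.2 with kaempferol, both wholly below the model.

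**Figure D2:**
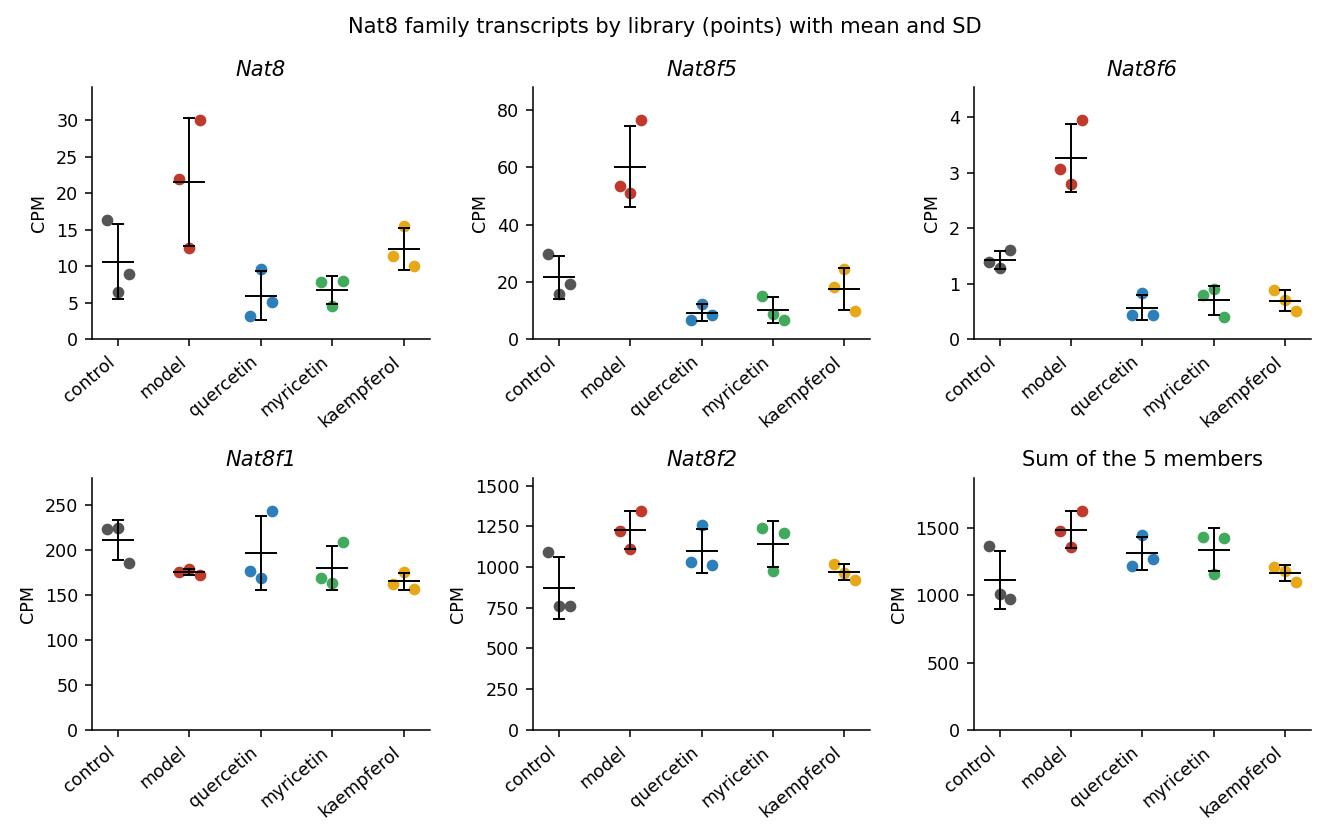
CPM (vertical axis, from 0) of each member and of the sum of the 5 members in the 5 groups, with a point for each library and the mean and SD as black bars (n = 3). The 3 model libraries stand above all 12 others for Nat8f5 and Nat8f6, while Nat8f1, Nat8f2 and the sum overlap more between groups, with Nat8f2 from 759.6 to 1345 CPM.

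The model against the control asks what the cholesterol-rich diet did to these transcripts. The fitted log2 fold change was 1.48 ± 0.38 for Nat8f5, 1.18 ± 0.31 for Nat8f6, 1.02 ± 0.44 for Nat8, 0.49 ± 0.15 for Nat8f2 and -0.27 ± 0.13 for Nat8f1 (SE, n = 3 libraries a group). For the sum of the 5 it was 0.41 ± 0.14. With edgeR's quasi-likelihood test and Benjamini-Hochberg adjustment over 12658 genes, 1 of the 5 members, Nat8f6, passed an adjusted threshold of 0.05, and 4.46% of all genes tested passed. Ranges of CPM did not overlap for Nat8f2, Nat8f5 and Nat8f6, which were higher in the model, as in 15.1% of all genes, or for Nat8f1, which was lower, as in 14.9%. The members were picked on these counts, so nothing is read from these shares. The Nat8f6 call was lost when any of the 6 libraries was left out. Without control replicate 1, in which Nat8, Nat8f2 and Nat8f5 were highest among the controls, Nat8f2 and Nat8f5 passed instead.

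For quercetin against the model, the log2 fold change was -2.70 ± 0.41 for Nat8f5, -2.50 ± 0.34 for Nat8f6 and -1.84 ± 0.46 for Nat8, but 0.16 ± 0.13 for Nat8f1 and -0.16 ± 0.15 for Nat8f2 (SE, n = 3). On the linear scale the Nat8f5 fit is 6.50-fold lower, and that of Nat8f6 is 5.64-fold lower. These 3 members passed edgeR's adjusted threshold, where 7.82% of all genes passed and 3.76% passed as lower. The calls of Nat8f5 and Nat8f6 remained when any of the 6 libraries was left out, and that of Nat8 was lost without model replicate 1 or 5 or without quercetin replicate 2 or 8. The summed family differed by -0.18 ± 0.14. On the log2(TPM + 1) scale, which shrinks genes as low as Nat8f6, the value of that member was -1.36 with quercetin, -1.30 with myricetin and -1.32 with kaempferol against the model.

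With myricetin the log2 fold change against the model was -2.56 ± 0.40 for Nat8f5, -2.21 ± 0.33 for Nat8f6 and -1.66 ± 0.45 for Nat8 (SE, n = 3). It was 0.04 ± 0.13 for Nat8f1 and -0.10 ± 0.15 for Nat8f2. Nat8f5 and Nat8f6 passed the edgeR threshold, where 0.395% of all genes passed and 0.213%, 27 in number, passed as lower. Without model replicate 1, 2 or 5, or without myricetin replicate 7 or 8, only Nat8f6 of the 2 passed. With kaempferol the log2 fold change was -1.78 ± 0.39 for Nat8f5, -2.21 ± 0.33 for Nat8f6 and -0.80 ± 0.43 for Nat8 (SE, n = 3). It was -0.09 ± 0.13 for Nat8f1 and -0.34 ± 0.15 for Nat8f2. Nat8f6 alone among the members passed, as 1 of the 3 genes (0.0237% of all tested) that passed as lower, while 0.0395% of all genes passed in either direction. That call was lost without model replicate 1, 2 or 5 or without kaempferol replicate 3. Each flavonol group had 3 members with ranges wholly below the model, which were Nat8, Nat8f5 and Nat8f6 with quercetin and myricetin and Nat8f2, Nat8f5 and Nat8f6 with kaempferol. Ranges lay below the model in 14.2% of all genes with quercetin, 9.23% with myricetin and 8.75% with kaempferol, and the members' choice fixed these counts in part. The 3 comparisons share the model libraries, and the doses differ, so no difference between the flavonols was tested.

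Set against the control, 1 member passed with quercetin and none with the other flavonols. The log2 fold change of Nat8f6 was -1.31 ± 0.36 with quercetin, -1.02 ± 0.35 with myricetin and -1.03 ± 0.35 with kaempferol (SE, n = 3). That of Nat8f5 was -1.22 ± 0.40 with quercetin, -1.08 ± 0.40 with myricetin and -0.30 ± 0.39 with kaempferol. Of the 5 members, 1 passed edgeR's adjusted threshold with quercetin (Nat8f6), beside 11.6% of all genes. None passed with myricetin, beside 9.2% of all genes, or with kaempferol, beside 13.4%. In those 2 comparisons 3 and 2 members had an unadjusted edgeR p under 0.05, as had 26.4% and 29.2% of all genes, and DESeq2 and limma on log2(TPM + 1) called 0. The Nat8f6 call with quercetin was lost without control replicate 2 or 3 or without quercetin replicate 2 or 8, with the replicate number as a block, and in a fit on only the 2 groups. On the log2(TPM + 1) scale its value was -0.57 with quercetin, -0.52 with myricetin and -0.53 with kaempferol. Nat8f7, outside the 5 members and 99.56% identical to Nat8f6 in coding sequence, passed as lower against the control with each flavonol. Its log2 fold change was -1.91 ± 0.46 with quercetin, -5.36 ± 0.71 with myricetin and -1.99 ± 0.46 with kaempferol (SE, n = 3). These Nat8f7 values rest on 7.28 or fewer expected counts in a flavonol library. The 3 comparisons share the control libraries.

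**Figure D3:**
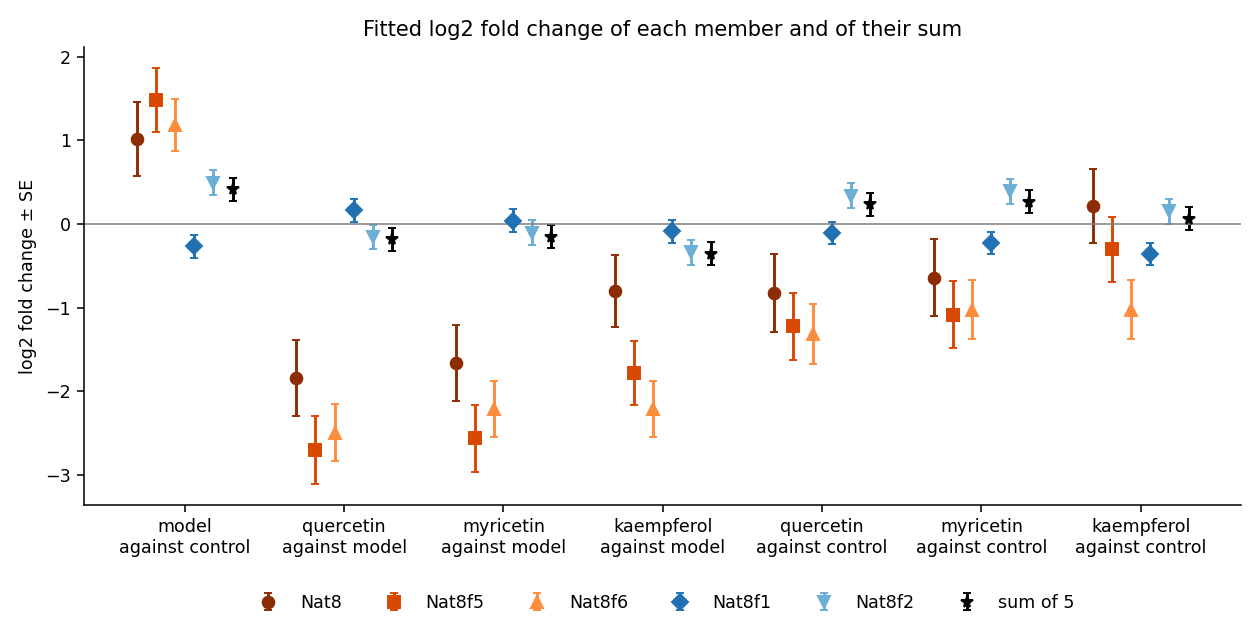
Log2 fold change with SE (vertical axis) of each member and of the sum of the 5 in 7 comparisons of 3 libraries against 3 (horizontal axis). Nat8, Nat8f5 and Nat8f6 lie between -2.70 and -0.80 in the flavonol groups against the model, while Nat8f1, Nat8f2 and the sum lie between -0.35 and 0.16 there.

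Genes beside the cluster were examined next. Of the 10 nearest named rows, 8 were tested, among them Alms1, a centrosomal protein gene that holds Nat8f7 within it, and Tprkb, a subunit of a complex that modifies transfer RNA. In the model against the control and in the 3 flavonol groups against the model, 0 of 8 passed edgeR's adjusted threshold. At an unadjusted p under 0.05 the count was 1, 0, 0 and 1 in that order, DESeq2 called 0 in all 4, and limma on log2(TPM + 1) called 1 with quercetin and 0 in the others. Log2 fold changes of these neighbours lay between -0.39 and 0.34 for the model against the control and between -0.39 and 0.35 for quercetin against the model. They lay between -0.36 and 0.25 with myricetin and between -0.17 and 0.33 with kaempferol. Nat8f5 and Nat8f6 stood outside these ranges in all 4 comparisons, and Nat8f2 and Nat8f1, at the other end of the cluster, stood within them for quercetin and myricetin. For the model against the control and for kaempferol, Nat8f1 was again within the range, whereas Nat8f2 was outside it at 0.49 and -0.34. Against the control 0 of the 8 neighbours passed with quercetin and 0 with myricetin. With kaempferol 1 passed, beside 13.4% of all genes, and DESeq2 also called 1. It was Tgfa, with a log2 fold change of 0.46 ± 0.13 (edgeR adjusted p = 0.0241). Strand was not stated, so reads of Nat8f1 and Tprkb, or of Nat8f7 and Alms1, may be mixed.

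**Figure D4:**
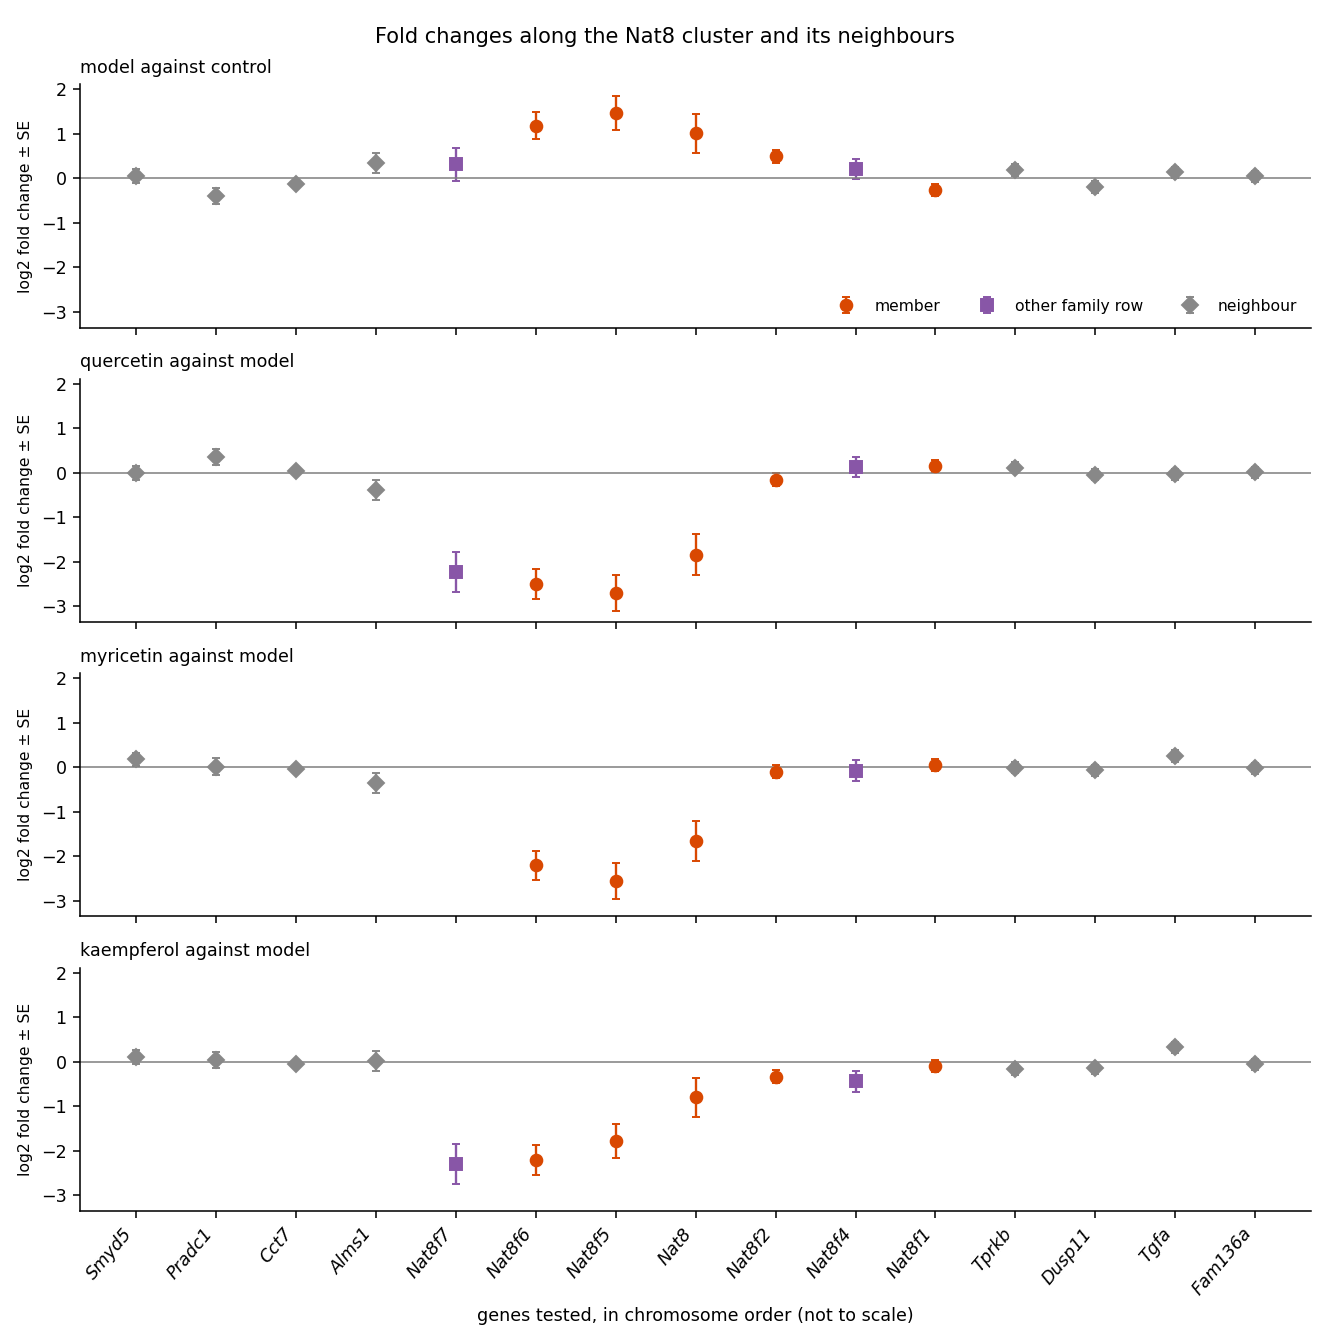
Log2 fold change with SE (vertical axis) of the tested family rows and neighbouring genes, in chromosome order (horizontal axis, not to scale), in 4 comparisons. Nat8f7, Nat8f6, Nat8f5 and Nat8 lie low against the model where the neighbours stay between -0.39 and 0.35, and Nat8f7 with myricetin is left out because its libraries held 0, 1 and 0 counts.

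Across all 15 libraries Nat8f5 went with Nat8f6 (Pearson r of log2 CPM = 0.923) and with Nat8 (r = 0.870). After group means were removed, so that only the spread within groups remained, r was 0.662 and 0.704. Nat8f2 had r = 0.408 with Nat8 over all libraries and 0.856 within groups. Nat8f1 had r between -0.22 and -0.12 with the other 4 members. Within groups its r was 0.06 with Nat8, 0.04 with Nat8f2, -0.11 with Nat8f5 and -0.61 with Nat8f6. These are descriptions over 15 libraries that share 5 groups and a common scaling, and no p is given.

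The named genes most like each member over the 15 libraries were then listed. For Nat8f5 they were Lingo4 (r = 0.919), a leucine-rich repeat membrane protein gene, Afg3l1 (r = 0.906), a mitochondrial AAA protease gene, and Col27a1 (r = 0.901), a fibrillar collagen gene. Lingo4 was lower in abundance, with a mean of 1.21 ± 0.504 CPM in the model, 0.780 ± 0.324 in the control and 0.257 ± 0.135 with kaempferol (SD, n = 3). Lingo4 averaged 0.0370 ± 0.0641 CPM with quercetin and had 0 counts in each myricetin library. Col27a1 was 234.2 ± 50.4 CPM in the model, 139.4 ± 23.9 in the control, 108.0 ± 18.9 with kaempferol, 98.6 ± 41.9 with myricetin and 91.3 ± 39.6 with quercetin (SD, n = 3). For Nat8f6 the list was Dnajc1 (r = 0.932) and Sec63 (r = 0.889), both of the endoplasmic reticulum chaperone and translocation machinery, with Lingo4 between them (r = 0.894). For Nat8 it was Afg3l1 (r = 0.877), Aldh1a1 (r = 0.844), a retinal dehydrogenase gene, and Neu2 (r = 0.835), a sialidase gene. Nat8f1 had Atraid (r = 0.898), Ndufb5 (r = 0.880) and Tmem219 (r = 0.858), and Nat8f2 had Slc25a21 (r = 0.886), Tmem175 (r = 0.853) and Fam92a (r = 0.848). No gene stood on both the list of an abundant member and that of a less abundant member.

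Genes of the mercapturate pathway, in which human NAT8 catalyses the closing step, are given next. The list holds 44 genes of glutathione synthesis, conjugation, export and trimming, of which 39 were tested. In the model against the control, Acy3, an aminoacylase that removes acetyl groups from mercapturates, rose by a log2 fold change of 0.47 ± 0.12 (edgeR adjusted p = 0.0329), from 47.1 ± 4.35 to 65.1 ± 5.61 CPM (SD, n = 3). Gstt2, a glutathione transferase, fell by 1.10 ± 0.24 on the log2 scale (edgeR adjusted p = 0.0223), from 30.0 ± 8.68 to 13.9 ± 2.61 CPM. The other 37 did not pass, so that 2 of 39 stood beside 4.46% of all genes, and the median log2 fold change was -0.01 for both the list and all genes. Without control replicate 2, or model replicate 2 or 5, 0 of the list passed.

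With quercetin against the model 6 of the 39 genes rose and 1 fell, beside 7.82% of all genes in either direction. Mgst3, a membrane-bound glutathione transferase, rose by a log2 fold change of 1.33 ± 0.17 (edgeR adjusted p = 0.0003), from 7.11 ± 1.26 to 17.8 ± 3.31 CPM (SD, n = 3). Gstt2 rose by 1.49 ± 0.24 (edgeR adjusted p = 0.0023) from 13.9 ± 2.61 to 39.2 ± 4.45 CPM. Gss, glutathione synthetase, rose by 0.57 ± 0.12 (edgeR adjusted p = 0.0080), whereas Gclc, the catalytic subunit of the preceding enzyme, fell by 0.67 ± 0.17 (edgeR adjusted p = 0.0219). The list's median was 0.17, and that of all genes 0.01. This was the comparison in which Nat8, Nat8f5 and Nat8f6 passed as lower. Without model replicate 1 or quercetin replicate 2, 3 of the list passed. With myricetin and with kaempferol 0 of 39 passed edgeR's threshold. At an unadjusted p under 0.05 the counts were 5 and 4, and DESeq2 called 2 and 0. Against the control, with quercetin 7 of 39 rose and 0 fell, beside 11.6% of all genes, with myricetin 3 rose and 2 fell, beside 9.2%, and with kaempferol 3 rose and 0 fell, beside 13.4%. Gstm4, a glutathione transferase with near-identical relatives, was called higher in all 3, and with myricetin Ggt5 and Gsta3 were the genes that fell. Whether reads shared with those relatives altered the Gstm4 count was not tested. Acy3 rose in all 3, by 0.59 ± 0.12, 0.61 ± 0.12 and 0.38 ± 0.12 (edgeR adjusted p = 0.0054, 0.0057 and 0.0437), and these comparisons share the control libraries.

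Other acyl transfer enzymes and the acetyl-CoA supply were also counted. Of 16 other N-acyltransferase genes, 13 were tested. With quercetin against the model, Sat1, which acetylates polyamines, rose by 0.54 ± 0.15 (edgeR adjusted p = 0.0347), and Nat10, which acetylates cytidine in RNA, fell by 0.55 ± 0.14 (edgeR adjusted p = 0.0231). Leaving out any of the 6 libraries brought this count of 2 down to 0 or 1. In the model against the control, with myricetin and with kaempferol the edgeR count was 0, with 4, 2 and 2 genes at an unadjusted p under 0.05 and 0, 0 and 1 by DESeq2. Against the control 3 passed with quercetin (2 higher, 1 lower), 1 with myricetin (lower) and 1 with kaempferol (higher). These were Gnpnat1, Nat9 and Baat, then Nat14, then Sat1. Slc33a1, the carrier that brings acetyl-CoA into the endoplasmic reticulum, was 93.9 ± 4.21 CPM in the model, 72.3 ± 1.95 with kaempferol, 70.8 ± 2.91 with myricetin and 61.2 ± 6.31 with quercetin (SD, n = 3). It fell against the model with quercetin, by 0.62 ± 0.09 on the log2 scale (edgeR adjusted p = 0.0009). With myricetin and kaempferol the edgeR adjusted p was 0.0712 and 0.126, and neither passed. The other 5 genes of acetyl-CoA supply did not pass edgeR's threshold against the model. With myricetin and with kaempferol the whole list had 3 and 3 genes at an unadjusted p under 0.05, and DESeq2 called 2 and 2. Against the control 2 of the 6 fell with each flavonol, beside 11.6%, 9.2% and 13.4% of all genes in either direction. With quercetin these were Slc33a1 and Crat, a carnitine acetyltransferase, which fell by 0.39 ± 0.09 and 0.66 ± 0.18 on the log2 scale (edgeR adjusted p = 0.0145 and 0.0325). With myricetin and with kaempferol they were Acly, which makes cytosolic acetyl-CoA from citrate, and Slc25a1, the mitochondrial citrate carrier. Acly fell by 1.08 ± 0.28 and 0.99 ± 0.28 (edgeR adjusted p = 0.0306 and 0.0325), and Slc25a1 by 0.40 ± 0.10 and 0.43 ± 0.10 (edgeR adjusted p = 0.0236 and 0.0125). Limma on log2(TPM + 1) called 0 of the 6 against the control with each flavonol.

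Several further sets of genes were counted in the same comparisons, and their part in the members' values was not tested. Of all genes tested, 4.46% passed edgeR's threshold in either direction in the model against the control. Against the model 7.82% passed with quercetin, 0.395% with myricetin and 0.0395% with kaempferol, and against the control 11.6%, 9.2% and 13.4%. The counts of edgeR calls below stand beside these shares. For counts by unadjusted p or by DESeq2 no share of all genes is given here, so nothing is read from them. In bulk tissue, fewer cells of a type and less RNA per cell cannot be told apart. Markers of hepatocytes were abundant in every library. In the model against the control 16 of 19 lay below 0, with a median log2 fold change of -0.24, and 1 of them, the transcription factor gene Hnf4a, fell by 0.72 ± 0.15 (edgeR adjusted p = 0.0144), from 953.6 ± 174 to 577.8 ± 89.1 CPM. Their summed level was 131833 to 148348 CPM in control and 102758 to 125527 in model libraries, with no overlap. Against the control 2, 4 and 3 of the 19 fell with quercetin, myricetin and kaempferol, beside 11.6%, 9.2% and 13.4% of all genes. In the model against the control 4 of 12 macrophage markers and 4 of 12 endothelial markers rose, and summed macrophage markers went from 135.5 to 223.7 CPM in control libraries to 289.2 to 403.4 in model libraries. With quercetin, myricetin and kaempferol against the control, macrophage markers rose in 9, 9 and 12 of 12 and endothelial markers in 2, 8 and 10 of 12. Against the model 0 of 12 macrophage markers passed edgeR's threshold with any flavonol. With kaempferol 11 had an unadjusted p under 0.05 and 10 had ranges wholly above the model, and DESeq2 called 3. With quercetin and myricetin 0 and 1 had such a p and DESeq2 called 0. The share of all genes with ranges above the model is not given for kaempferol either. Summed macrophage markers were 386.5 to 436.0 CPM with quercetin, 382.4 to 537.4 with myricetin and 486.6 to 1081 with kaempferol. Among 22 genes with higher expression in male mouse liver, 22 had a log2 fold change below 0 with quercetin against the model and 6 fell. Their summed level was 26502, 34120 and 73911 CPM in quercetin libraries against 87604 to 104073 in model libraries. With myricetin and kaempferol 0 of the 22 passed edgeR's threshold, with summed levels of 76512 to 82782 and 70451 to 98822 CPM. In these 2 comparisons 17 and 19 of the 22 had a log2 fold change below 0. Ranges lay wholly below the model in 7 and 4, beside 9.23% and 8.75% of all genes. An unadjusted p under 0.05 was seen in 3 and 3, and DESeq2 called 0. In the model against the control 18 of the 22 lay above 0, 11 had ranges wholly above the control and 1 rose. Of genes with higher expression in female mouse liver, 9 were tested, and with quercetin against the model 2 rose and the median log2 fold change was 1.80. With myricetin and kaempferol 0 of the 9 passed. The list's summed level was 19.2 to 27.4 CPM in the model, 74.5 to 335.1 with quercetin and 71.3 to 312.1 in the control. It was 24.1 to 270.8 CPM with myricetin and 38.7 to 100.9 with kaempferol. Cyp4a14 alone averaged 162.1 ± 124.1 CPM with quercetin, where the sum averaged 199.5, and 5.18 ± 2.83 in the model (SD, n = 3). Of 19 clock genes, 13 passed with quercetin against the model (7 higher, 6 lower), beside 7.82% of all genes. With myricetin 5 passed (3 higher, 2 lower), beside 0.395%, and with kaempferol 1 (lower), beside 0.0395%. With kaempferol 9 had an unadjusted p under 0.05 and DESeq2 called 6. With quercetin the fit was 53.4-fold higher for Dbp, 19.6-fold higher for Nr1d1, 10.8-fold lower for Arntl and 7.12-fold lower for Cry1. The hour of collection is not stated, and its part was not tested. Against the control 13, 6 and 12 of the 19 passed. Human NAT8 is strongly expressed in kidney, so tubule markers were checked. Of 12 markers 6 were in the table, and 5 of these stayed at or below 0.527 CPM in every library, with Cubn and Slc22a8 at 0 in 13 of 15. The sixth, Lrp2, ranged from 0.333 to 2.08 CPM and was the only marker tested. With quercetin against the model Lrp2 fell by 2.22 ± 0.37 on the log2 scale (edgeR adjusted p = 0.0019). Its level went from 2.00 ± 0.118 to 0.425 ± 0.115 CPM (SD, n = 3). Lrp2 did not pass against the model with myricetin or kaempferol, where its log2 fold change was -0.27 and -1.17. With kaempferol its range lay wholly below the model, as in 8.75% of all genes. In the model against the control Lrp2 did not pass either, at 1.03. Its range there lay wholly above the control, as in 15.1% of all genes. The summed list was 2.04 to 2.70 CPM in model libraries, 0.761 to 1.61 in control and 0.667 to 0.862 with quercetin. It was 1.72 to 2.35 CPM with myricetin and 0.719 to 1.53 with kaempferol.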

How the data were processed

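Liver RNA of 15 libraries was measured by RNA sequencing. The submitters' processing notes name GRCm38.p6 as the build, and RSEM 1.3.1, DESeq2 1.4.5, Bowtie2 2.3.4.3 and HISAT2 2.1.0 as tools, without saying which did what. Per the file headers, the authors deposited an expected count and a TPM for every gene in each library. Of the expected counts 5.37% were not whole to within 0.005. The 15 FPKM and 15 group average columns were not used. Members and gene lists were chosen with earlier results of these data known, and most alike genes are the 3 named genes with the highest r of log2(CPM + 0.5).

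Expected counts were rounded, and filterByExpr kept 12658 genes, with 5 of 5 members and 7 of 8 family rows (not Nat8f3). The robust quasi-likelihood fit of edgeR 4.0.16 (R 4.3.3, TMM scaling) covered all 15 libraries with 10 residual degrees of freedom, and its biological coefficient of variation was 0.155. Each SE is the log2 fold change over the square root of F. The fit was tested on simulated data. DESeq2 1.42.0, limma 3.58.1 on log2(TPM + 1), a fit without the filter and left-out libraries were alternatives. Coding sequences came from GENCODE vM21 and promoters from RefSeq, which held all 8 family genes.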

Additional observations from a re-analysis of the deposited data

How the results depend on the processing

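Of 518 log2 fold changes of the members and Nat8f7 under alternative settings, 470 stayed within 1 SD of the replicates, 48 moved by more, and 0 called values changed sign. Members called with 1 library left out ranged from 0 to 2 for the model against the control (1 with all libraries), 2 to 3 for quercetin against the model (3), 1 to 2 for myricetin (2), 0 to 1 for kaempferol (1), and, against the control, 0 to 2 for quercetin (1) and 0 to 1 for myricetin (0). DESeq2 called 3, 3, 3 and 2 members in the first 4 comparisons and 2 for quercetin against the control. A fit on only the 2 groups called 2 for the model against the control and 0 for quercetin against the control. The share of all genes called was not counted under these alternatives, so nothing is read from higher or lower counts of members.

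With a replicate block, 1 member passed with myricetin against the model, 0 with kaempferol against the model and 0 with quercetin against the control. Deviations of libraries with the same number from their group means had a correlation between -0.27 and 0.10. The numbers recur only in part between groups, so these values cannot tell whether the numbers pair the libraries. With the block, mercapturate genes called were 1 for the model against the control, and other N-acyltransferases called were 0 for quercetin against the model.

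Mercapturate genes called with 1 library left out ranged from 0 to 2 for the model against the control, 3 to 7 for quercetin and 0 to 1 for myricetin against the model. DESeq2 called 2 with myricetin, and limma on log2(TPM + 1) called 1 for the model against the control and 12 with quercetin. Other N-acyltransferases called with quercetin ranged from 0 to 1 with 1 library left out and were 4 by DESeq2. They were 1 for the model against the control in a fit on only the 2 groups, and 1 with kaempferol by DESeq2 and by limma. Of the neighbours, limma called 1 with quercetin. The summed family with quercetin against the model moved from -0.18 to -0.022 on the log2(TPM + 1) scale. On that scale, which shrinks low genes, Nat8f6 went from -2.50 to -1.36 with quercetin, from -2.21 to -1.30 with myricetin and from -2.21 to -1.32 with kaempferol against the model. Against the control it went from -1.31 to -0.57 with quercetin, and in the model against the control from 1.18 to 0.79. The cause of the other differences was not tested. In 2 alternatives added after the data were seen, Nat8f6 was summed with Nat8f7, or with Nat8f3 and Nat8f7, and its log2 fold change against the model was -2.42 and -2.31 with quercetin. With myricetin against the control it went from -1.02 to -1.80 and -1.67. Nat8f6 rests on 7 to 59.6 counts a library, which limits its precision.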
